A study of Mus musculus with 6 samples.

Results

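The immediate early transcription factors examined here are 10 genes: Fos, Fosb, Fosl2, Jun, Junb, Jund, Egr1, Ier2, Atf3 and Btg2. They were taken by gene name from a deposited table of 22695 rows, each name matched 1 row, and all 10 passed the filter on low counts, among 13694 genes tested. Poly-A RNA of snap-frozen inguinal white adipose tissue (iWAT), the subcutaneous fat pad of the groin, was sequenced from C57BL/6J mice aged 20 months. There were 3 samples of GSNOR KO mice, which lack S-nitrosoglutathione reductase, the enzyme encoded by Adh5 that reduces S-nitrosoglutathione, and 3 samples of wild-type (WT) mice. The labels give no sex, no time of day and no design of the knockout allele, and do not state that each sample is a separate animal, so a p-value here covers the spread of these samples, which may be technical. The submitters sequenced the tissue to look for transcripts behind a stronger lipid metabolism of old GSNOR KO mice, and the values below give the place of the immediate early genes in that comparison.

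Immediate early genes are transcribed within minutes of a stimulus, such as a growth factor, stress or calcium signal, without new protein synthesis. ERK signalling through serum response factor (SRF) and its ELK partners, and protein kinase A signalling through CREB, are the classical routes to Fos and Egr1, while JNK phosphorylates the JUN protein. FOS proteins pair with JUN proteins through leucine zippers to form AP-1, which binds the site TGANTCA, and FOS transcripts are short-lived because of AU-rich elements in their tails. In fat, AP-1 proteins act in adipocytes as well as in fibroblasts, endothelial cells and macrophages.

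The promoters of Fos, Fosb, Jun and Junb are shown because these genes encode both partners of AP-1 and include Fos, the gene with the strongest difference between the genotypes. The sequences are the 250 bases before the RefSeq transcription start on GRCm38.p6, written 5′ to 3′ on the strand of the gene. Fos lies at chr12:85473640-85473889 on the plus strand, Fosb at chr7:19310046-19310295, Jun at chr4:95052223-95052472 and Junb at chr8:84978749-84978998 on the minus strand. Capitals mark matches, on either strand, to the motifs spelled out after the sequences.
Fos: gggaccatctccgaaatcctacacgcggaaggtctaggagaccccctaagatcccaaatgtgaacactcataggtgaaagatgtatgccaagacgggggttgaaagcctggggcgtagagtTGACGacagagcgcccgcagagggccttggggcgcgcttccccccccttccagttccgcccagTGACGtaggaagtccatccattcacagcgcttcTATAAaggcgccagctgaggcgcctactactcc
Fosb: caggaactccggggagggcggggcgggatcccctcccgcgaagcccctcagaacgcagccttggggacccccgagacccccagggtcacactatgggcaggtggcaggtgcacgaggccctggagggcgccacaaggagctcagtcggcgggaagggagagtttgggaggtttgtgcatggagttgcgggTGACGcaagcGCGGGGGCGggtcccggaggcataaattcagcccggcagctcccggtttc
Jun: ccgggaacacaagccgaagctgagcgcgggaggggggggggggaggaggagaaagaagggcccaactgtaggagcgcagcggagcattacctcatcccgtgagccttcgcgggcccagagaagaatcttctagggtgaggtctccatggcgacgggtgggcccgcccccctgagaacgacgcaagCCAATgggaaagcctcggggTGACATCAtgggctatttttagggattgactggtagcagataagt
Junb: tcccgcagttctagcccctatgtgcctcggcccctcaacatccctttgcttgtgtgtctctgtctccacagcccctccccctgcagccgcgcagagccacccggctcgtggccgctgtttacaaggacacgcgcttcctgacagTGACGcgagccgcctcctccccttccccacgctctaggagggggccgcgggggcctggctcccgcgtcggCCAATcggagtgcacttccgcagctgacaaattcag

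RefSeq promoter sequences were matched for 8 of the 10 genes, all but Egr1 and Ier2. The motifs searched were the cyclic AMP response element (CRE) TGACGTCA, its core TGACG, the AP-1 site TGANTCA, the related form TGANNTCA, the EGR site GCGNGGGCG, the CCAAT box, the TATA box TATAA and the CArG box of SRF. TGACG is part of the CRE, and the CRE is one of the forms of TGANNTCA. The core TGACG stood in 5 of the 8 promoters (Fos, Fosb, Junb, Atf3 and Btg2) and in 17.8% of 32851 mouse promoters of this length. In Fos it lay at -129 to -125 and at -66 to -62, counted back from the base before the start, ahead of a TATA box at -33 to -29. The whole CRE was found in Btg2, at -166 to -159, and in 1.55% of all promoters. TGANNTCA matched in Jun, Jund and Btg2 (11.9% of all promoters), and the EGR site in Fosb, Fosl2 and Btg2 (4.7%). The CCAAT box matched in Jun, Junb and Btg2, against 33.8% of all promoters, and TATAA in Fos, against 22.8%. TGANTCA and the CArG box matched 0 of the 8 promoters in this window, against 6.75% and 1.47% of all promoters. Bases farther upstream and the promoter of Egr1 were not searched, so a match there would not be seen. The windows end at the RefSeq starts. These coincide with the start of the GENCODE gene model used below for Fos and Jun, lie upstream of it for Junb, Jund and Btg2, and lie inside the model for Fosb, Fosl2 and Atf3. The distances differ widely and are largest for Jund and Atf3. The Jund window ends at 70697738, while its model starts at 70698949. The Atf3 window covers 191183334 to 191183583, while its model, on the minus strand, starts at 191218039. A match is a description of the letters and not a site shown to be bound, and the core TGACG was added after the sequences had been read.

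Most of the genes are short with few exons, which the choice of members did not use. In GENCODE release M21 on GRCm38, Jun, Junb, Jund and Ier2 have 1 exon in the principal transcript, as do 2.47% of 12971 tested genes with a protein-coding model. Egr1 and Btg2 have 2 exons and Fos, Fosb, Fosl2 and Atf3 have 4, against a median of 9. Fos (ENSMUSG00000021250) spans 3384 bases on chromosome 12, from 85473890 to 85477273, and the genes range from 1522 bases in Ier2 to 47744 bases in Atf3, against a median of 24473. In the 3′ untranslated region ATTTA, the pentamer of AU-rich elements, occurred 4.91 times per kilobase in Fos, 4.12 in Junb, 3.24 in Jun and 0 times in Ier2, against a median of 1.24 over 12800 genes. The remaining members ran from 0.47 in Fosb, below that median, to 2.53 in Atf3. The longer AU-rich form, the nonamer that decay factors are known to bind, was present in Fos and Fosl2, and in 16.2% of those genes. The Fos copy is printed with 10 bases on either side and the nonamer in capitals, from chr12:85477103-85477131 on the plus strand of GRCm38, because Fos is the gene on which the comparison turns.
Fos AU-rich site: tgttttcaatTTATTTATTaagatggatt

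The libraries held 21223848 to 23961574 counts in GSNOR KO and 20277594 to 22793152 in WT. Adh5, the targeted gene, was lower in every GSNOR KO library, at 3.81 to 5.08 CPM, the count scaled to the size of its library, than in every WT library, at 58.8 to 76.9 CPM. Differences were tested with edgeR's quasi-likelihood test across all genes and called under a Benjamini-Hochberg adjusted p of 0.05. Of the 13694 genes 964, or 7.04%, were called, of which 534 were higher and 430 lower in GSNOR KO. Without TMM, on plain library totals, the split was 314 higher and 406 lower. DESeq2, used as an alternative, called 2344 of the 13694 genes. The adipocyte markers were abundant in all libraries, with Fabp4, a fatty acid carrier, at 7518 ± 766 CPM in GSNOR KO and 7047 ± 629 CPM in WT, and Lpl, lipoprotein lipase, at 2293 ± 167 CPM in GSNOR KO and 2164 ± 359 CPM in WT (SD, n = 3 each). The 11 adipocyte markers summed to 15775 to 17573 CPM in GSNOR KO and 14120 to 16515 CPM in WT. Of these, 8 were higher on average in GSNOR KO, or 6 on plain library totals, and 1 rose, Pnpla2, the gene of a triglyceride lipase, which was named after its values were seen (log2 fold change 0.52, edgeR adjusted p = 0.0428, with 0 called on plain library totals). Other cell types were present too. The summed markers of macrophages, skeletal muscle and fibroblasts did not overlap between the genotypes, and those of the others did. The 12 macrophage markers summed to 101 to 135 CPM in GSNOR KO and 208 to 477 CPM in WT, with C1qa and C1qb the most abundant over the 6 libraries and Mpeg1, named after its values were seen, the most abundant in WT replicate 1 at 111 CPM. The 12 skeletal muscle markers in the table, led by Myh4 and Tnnt3, summed to 6197 to 9548 CPM in GSNOR KO and 14423 to 36609 CPM in WT. The 10 fibroblast and progenitor markers, led by Dcn and Col3a1, summed to 339 to 422 CPM in GSNOR KO and 548 to 794 CPM in WT. In these lists 12 of 12, 12 of 12 and 10 of 10 genes were lower on average in GSNOR KO, and 5 fell in each by edgeR. DESeq2 called 8, 11 and 7, all lower in GSNOR KO. Without WT replicate 1 edgeR called 7, 8 and 6, and without WT replicate 3 it called 3, 3 and 4. Without WT replicate 2 or any one GSNOR KO library it called 0 in each list, in fits that called 3 to 13 of all tested genes. The 9 endothelial markers, led by Cdh5 and Pecam1, summed to 2793 to 3242 CPM in GSNOR KO and 1490 to 2838 CPM in WT, with 9 of 9 higher on average in GSNOR KO and 0 called by edgeR. The sums of the 9 lymphocyte markers, led by Cd79a, were 5.12 to 9.71 CPM in GSNOR KO and 9.10 to 51.3 CPM in WT, with 0 of 8 tested genes called by edgeR and 3 by DESeq2. The 7 smooth muscle and pericyte markers, led by Rgs5 and Acta2, summed to 994 to 1099 CPM in GSNOR KO and 732 to 1161 CPM in WT. The 5 erythroid markers, led by Hbb-bs and Hba-a1, summed to 1178 to 1278 CPM in GSNOR KO and 887 to 1430 CPM in WT. The 6 epithelial markers, led by Krt10 and Krt5, summed to at most 6.11 CPM, with Krt5, Krt8 and Krt14 at 0 in at least 3 libraries. In bulk tissue fewer cells of a type and less RNA per cell cannot be told apart. The part of these cell types in the results below was not tested.

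Fos, which encodes the inducible FOS subunit of AP-1, fell in GSNOR KO fat and was 3.19-fold higher in WT. It was the 1 gene of the 10 that was called. Junb, Egr1, Atf3 and Fosl2 lay below WT in all 3 GSNOR KO libraries without being called. Jun, Jund, Ier2, Btg2 and Fosb overlapped between the genotypes. Called genes thus made up 1 of 10, against 7.04% of all tested genes, with 1 of 10 called lower against 3.14% and 0 of 10 called higher against 3.9%. Groups without overlap made up 5 of 10, all of them lower in GSNOR KO, against 36.7% of all genes in either direction and 19.5% in that direction. An unadjusted p under 0.05 was found for 4 of the 10 (Fos, Atf3, Egr1 and Junb), against 28.6% of all genes. The median log2 fold change of the 10 was -0.43 and that of all tested genes -0.04, with 7 of the 10 below 0 and 3 above, of which Btg2 turned below 0 on plain library totals. The members were chosen with earlier results of these data known, so these shares describe the 10 genes and are not a test.

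**Figure D1:**
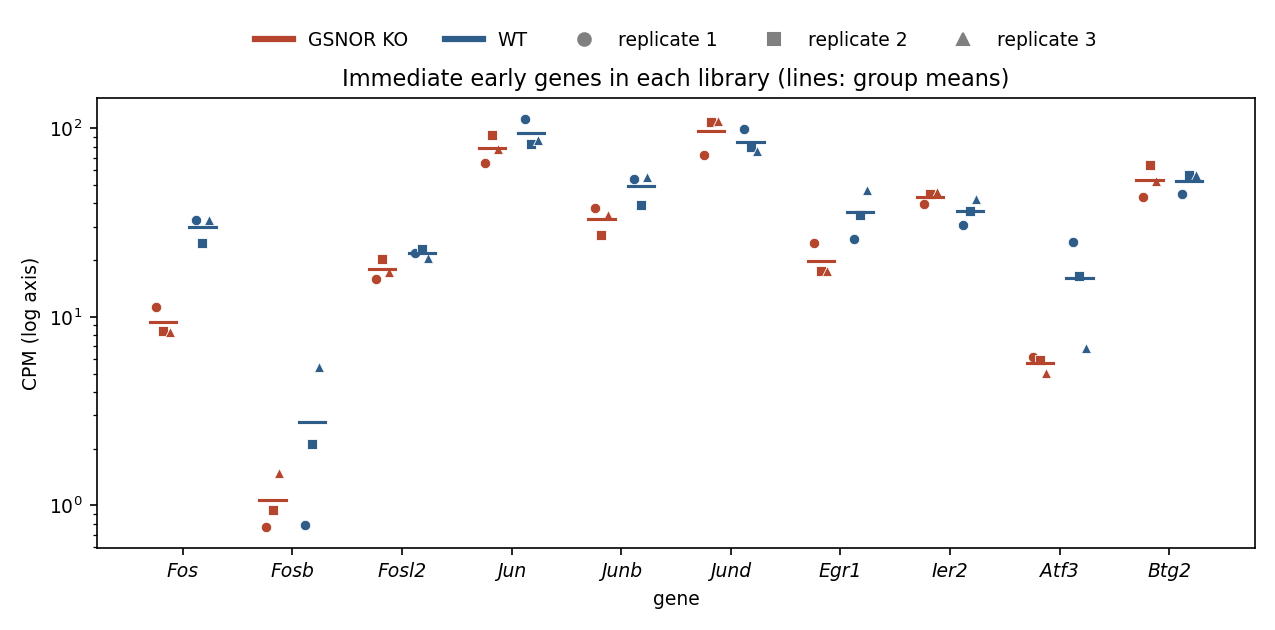
CPM (log axis) of the 10 immediate early genes in each library, GSNOR KO in red and WT in blue, with a marker per replicate and a line at each group mean. Fos lies between 8.36 and 11.3 CPM in GSNOR KO and between 24.6 and 32.7 CPM in WT, and Atf3 and Fosb are spread widely in WT.

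Fos was at 11.3, 8.44 and 8.36 CPM in GSNOR KO replicates 1 to 3, and at 32.7, 24.6 and 32.4 CPM in WT replicates 1 to 3. Every GSNOR KO library lay well below every WT library, and the highest library exceeded the lowest 1.35-fold in GSNOR KO and 1.33-fold in WT. The means were 9.36 ± 1.67 CPM in GSNOR KO and 29.9 ± 4.58 CPM in WT (SD, n = 3 each). This gives a log2 fold change of -1.68 (SE 0.177, approximate 95% interval -2.09 to -1.26, edgeR adjusted p = 0.0178). By p-value Fos ranked 13 among the 13694 genes. In the authors' deposited table Fos has a log2 fold change of -1.66 and a DESeq adjusted p of 1.02e-06. When single libraries were left out the log2 fold change stayed between -1.83 and -1.58, and the call was lost without GSNOR KO replicate 1, 2 or 3 (edgeR adjusted p = 0.0529, 0.111 and 0.101) and kept without each WT library. The fits without a GSNOR KO library called 3 to 5 of all tested genes. Those without WT replicates 1, 2 and 3 called 2844, 13 and 915. Over all 16 alternative settings the adjusted p of Fos ran between 8.82e-12 and 0.111. The summed macrophage markers were at 135, 101 and 126 CPM in GSNOR KO replicates 1 to 3 and at 477, 208 and 213 CPM in WT replicates 1 to 3. The summed muscle markers were at 9548, 6197 and 8957 CPM in GSNOR KO replicates 1 to 3 and at 36609, 14423 and 15611 CPM in WT replicates 1 to 3. The summed fibroblast and progenitor markers were at 422, 339 and 372 CPM in GSNOR KO replicates 1 to 3 and at 548, 794 and 617 CPM in WT replicates 1 to 3. Replicate 1 was highest among the WT libraries in the macrophage and muscle sums and lowest in the fibroblast sum, and the part of these cells in the Fos values was not tested.

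Fosb encodes a FOS relative that is even more dependent on stimulation, and it was the scarcest of the genes. It was at 0.765, 0.942 and 1.48 CPM in GSNOR KO replicates 1 to 3 and at 0.788, 2.11 and 5.44 CPM in WT replicates 1 to 3. WT replicate 3 stood far above the rest, and WT replicate 1 lay within the GSNOR KO range. These values rest on 17 to 33 counts per library in GSNOR KO and 18 to 119 in WT. Its log2 fold change was -1.38 (SE 0.672, 95% interval -2.95 to 0.19, edgeR adjusted p = 0.226). It was -1.80 without WT replicate 1, where the gene was called (edgeR adjusted p = 0.0245), and -0.41 without WT replicate 3 (adjusted p = 0.679, the highest of the alternatives). The fit without WT replicate 1 called 2844 of 13850 tested genes.

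Fosl2, the gene of FRA-2, which is present in resting cells and is known from mouse adipocytes as a regulator of leptin transcription, differed far less. It was at 16.0, 20.3 and 17.4 CPM in GSNOR KO replicates 1 to 3 and at 21.8, 22.9 and 20.6 CPM in WT replicates 1 to 3. The groups did not overlap, but the highest GSNOR KO library lay close to the lowest WT library. Its log2 fold change was -0.28 (SE 0.126, 95% interval -0.58 to 0.01, edgeR adjusted p = 0.191).

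**Figure D2:**
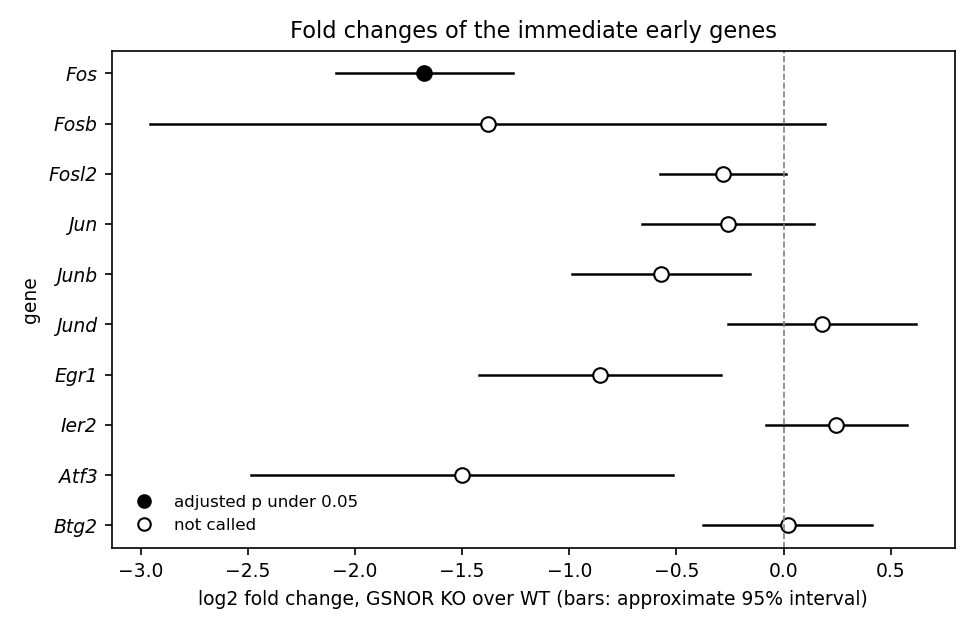
Log2 fold change of GSNOR KO over WT for each gene, with its approximate 95% interval from edgeR as a bar and a filled point where the adjusted p over all genes was under 0.05. Fos, at -1.68, is the filled point, and the intervals of Junb, Egr1 and Atf3 lie below 0 while those of the other 6 genes span 0.

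Shares of the summed level of the 3 genes restate the fall of Fos beside its relatives, and were not tested. On the scale of FPKM, fragments scaled to gene length and library size, which the authors deposited and which allows genes to be set side by side, Fos made up 60.4, 52.5 and 55.3% of the sum of Fos, Fosb and Fosl2 in GSNOR KO replicates 1 to 3 and 79.1, 70.4 and 75.4% in WT replicates 1 to 3. The share of Fosl2 was 40.0 ± 3.75% in GSNOR KO and 20.7 ± 4.49% in WT, and that of Fosb 3.93 ± 1.21% in GSNOR KO and 4.30 ± 3.24% in WT (SD, n = 3 each). The groups did not overlap in the shares of Fos and Fosl2. Relative to counts, the deposited FPKM carried a factor per gene that varied between libraries, and not equally for each gene. The shares here and in the JUN family below include this variation. Fosl2 itself was at 2.26 ± 0.189 FPKM in GSNOR KO and 2.91 ± 0.279 FPKM in WT, so its larger share came with no higher level. The 3 genes summed to 5.67 ± 0.373 FPKM in GSNOR KO and 14.4 ± 3.05 FPKM in WT. These sums leave out Fosl1, the gene of FRA-1 and the fourth of the family, which was at 1.37 ± 0.497 FPKM in GSNOR KO and 1.85 ± 0.807 FPKM in WT (edgeR adjusted p = 0.670). With Fosl1 counted, the share of Fos was 45.2 ± 1.86% in GSNOR KO and 66.6 ± 2.72% in WT (SD, n = 3 each).

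The JUN genes, whose proteins can pair with FOS or with each other, were not called: 0 of 3 by the main edgeR fit or DESeq2, with 1, Junb, at an unadjusted p under 0.05. Of all 13694 tested genes the main edgeR fit called 7.04% and DESeq2 called 2344, and 28.6% had an unadjusted edgeR p under 0.05. Junb, which encodes the JUN relative that often acts against JUN in growth control, came closest. It was at 37.6, 27.2 and 34.8 CPM in GSNOR KO replicates 1 to 3 and at 53.6, 39.0 and 55.5 CPM in WT replicates 1 to 3. GSNOR KO replicate 1 lay just below WT replicate 2, and the other libraries were further apart. For Junb the log2 fold change was -0.57 (SE 0.179, 95% interval -0.99 to -0.15, edgeR adjusted p = 0.0892). Of 16 alternatives 1 called Junb, the edgeR fit with the replicate number as a block (adjusted p = 0.0479). Junb overlaps Prdx2 on the opposite strand, and the strand setting of the counting is not known here, so reads of the pair may be shared.

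Jun, the partner that FOS binds most often in textbook AP-1, was at 65.8, 91.7 and 77.9 CPM in GSNOR KO replicates 1 to 3 and at 113, 82.2 and 87.1 CPM in WT replicates 1 to 3. GSNOR KO replicate 2 exceeded WT replicates 2 and 3. For Jun the log2 fold change was -0.26 (SE 0.171, 95% interval -0.66 to 0.14, edgeR adjusted p = 0.360). Jund, the JUN gene that is expressed steadily in resting cells, was at 72.2, 108 and 109 CPM in GSNOR KO replicates 1 to 3 and at 99.2, 79.8 and 75.8 CPM in WT replicates 1 to 3. GSNOR KO held both the lowest and the highest libraries. Its log2 fold change was 0.18 (SE 0.189, 95% interval -0.26 to 0.62, edgeR adjusted p = 0.573), and the sign turned to -0.01 on log2(FPKM + 1). Jun and Jund also overlap annotated antisense genes, Junos and Gm11175. In shares of the JUN family FPKM, Jun took 33.6 ± 2.49% in GSNOR KO and 34.1 ± 1.41% in WT, and Junb took 23.4 ± 6.37% in GSNOR KO and 31.3 ± 3.95% in WT (SD, n = 3 each). Jund took 43.0 ± 4.36% in GSNOR KO and 34.6 ± 2.77% in WT. Only the shares of Jund did not overlap between the genotypes.

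**Figure D3:**
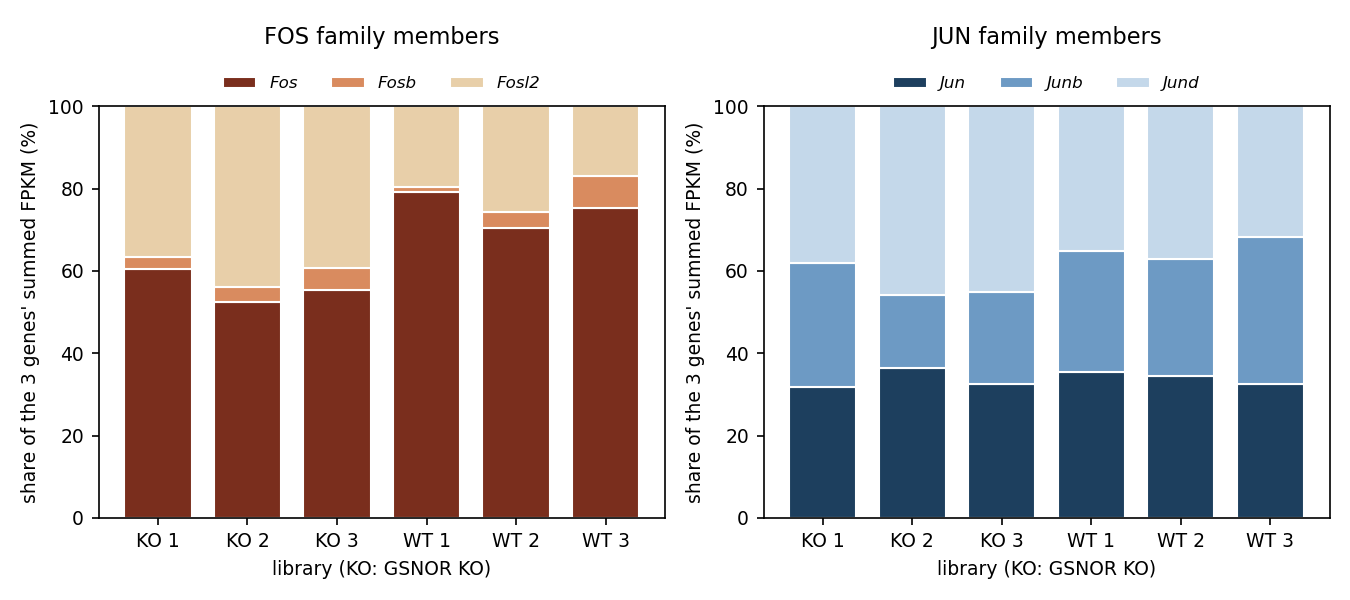
Share (%) of each gene in the summed FPKM of Fos, Fosb and Fosl2 (left) and of Jun, Junb and Jund (right), 1 bar per library, with the 3 GSNOR KO libraries left of the 3 WT libraries. Fos takes 52.5 to 60.4% of its 3 genes in GSNOR KO and 70.4 to 79.1% in WT, while the 3 JUN genes each take 17.7 to 45.9%.

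Egr1, a zinc finger factor induced together with Fos through SRF, was at 24.6, 17.4 and 17.5 CPM in GSNOR KO replicates 1 to 3 and at 25.9, 34.5 and 47.3 CPM in WT replicates 1 to 3. The groups did not overlap, but GSNOR KO replicate 1 and WT replicate 1 were nearly level. Egr1 had a log2 fold change of -0.86 (SE 0.242, 95% interval -1.42 to -0.29, edgeR adjusted p = 0.0726). Without WT replicate 1 it was -1.02 and called (edgeR adjusted p = 0.0165), in a fit that called 2844 of 13850 tested genes. Without WT replicate 3 it was -0.57 (adjusted p = 0.134), and the adjusted p ran between 0.0143 and 0.249 over the alternatives.

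Atf3, a stress-induced member of the ATF/CREB family that can pair with JUN, was at 6.12, 5.92 and 5.03 CPM in GSNOR KO replicates 1 to 3 and at 25.0, 16.5 and 6.86 CPM in WT replicates 1 to 3. The GSNOR KO libraries were alike, while WT spanned 3.64-fold and its replicate 3 lay just above GSNOR KO. The log2 fold change of -1.50 was nearly as large as that of Fos, with a wider error (SE 0.420, 95% interval -2.49 to -0.52, edgeR adjusted p = 0.0717). Without WT replicate 1 it was -1.004 (adjusted p = 0.0945), and without WT replicate 3 it was -1.83 and called (edgeR adjusted p = 0.0267), in a range of 0.00511 to 0.221 over the alternatives. The fit without WT replicate 3 called 915 of 13896 tested genes. DESeq2 called Egr1 and Atf3 as well as Fos (adjusted p = 0.0143, 0.00511 and 8.82e-12), and 2344 of all 13694 tested genes. In the authors' deposited DESeq comparison Egr1 and Atf3 did not pass (adjusted p = 0.204 and 0.338).

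Ier2, which encodes a small nuclear protein induced by growth factors, was at 39.6, 44.6 and 45.7 CPM in GSNOR KO replicates 1 to 3 and at 30.7, 36.6 and 42.2 CPM in WT replicates 1 to 3. WT replicate 3 exceeded GSNOR KO replicate 1, and the means ran the other way from Fos and Egr1. For Ier2 the log2 fold change was 0.25 (SE 0.140, 95% interval -0.08 to 0.57, edgeR adjusted p = 0.288). Btg2, an antiproliferative gene whose product recruits the CCR4-NOT deadenylase to messenger RNA, was at 43.2, 63.9 and 52.5 CPM in GSNOR KO replicates 1 to 3 and at 44.8, 56.3 and 56.4 CPM in WT replicates 1 to 3. The groups overlapped throughout. Btg2 had a log2 fold change of 0.02 (SE 0.168, 95% interval -0.37 to 0.41, edgeR adjusted p = 0.954), and its sign was not stable, at -0.04 on plain library totals.

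Fos was set against each of the other 9 genes within the same library, which removes any effect of library scaling. All 9 ratios share Fos, so they restate its fall beside each gene and are not separate results. The log2 ratio of Fos to Jun counts was -2.54, -3.44 and -3.22 in GSNOR KO replicates 1 to 3 and -1.79, -1.74 and -1.43 in WT replicates 1 to 3. Fos was thus lower relative to Jun in each GSNOR KO library than in any WT library, with a mean difference of -1.42 on the log2 scale. The log2 ratio of Fos to Junb was -1.83 ± 0.199 in GSNOR KO and -0.72 ± 0.0557 in WT, and that of Fos to Egr1 -1.08 ± 0.0389 in GSNOR KO and -0.23 ± 0.493 in WT (SD, n = 3 each). The difference of GSNOR KO from WT was largest against Ier2, at -1.93, and against Jund, at -1.84. It was -1.39 against Fosl2 and -1.69 against Btg2. In these 7 ratios the groups did not overlap. Against Atf3 and Fosb they did, with differences of -0.36 and -0.65. An exact two-sided permutation test gave p = 0.10 for each of the 7, the smallest that 3 against 3 samples allow, p = 0.90 for Atf3 and p = 0.60 for Fosb, or 0.129, 0.90 and 0.675 adjusted over the 9 ratios.

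**Figure D4:**
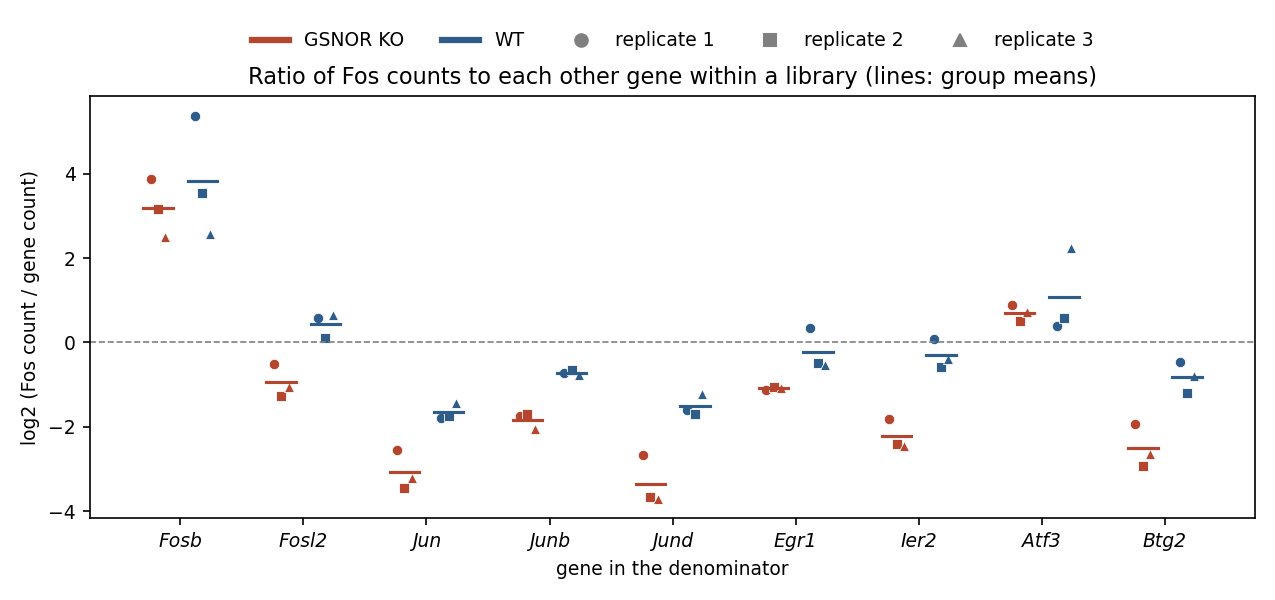
Log2 ratio of Fos counts to the counts of each other gene within a library, GSNOR KO in red and WT in blue, with a marker per replicate and a line at each group mean. The genotypes are apart for 7 genes, with differences of the means from -1.93 (Ier2) to -0.85 (Egr1), and overlap for Atf3 and Fosb, while heights are not comparable between genes because counts are not corrected for length.

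Per length, Jund had the highest and Fosb the lowest mean in both genotypes. In GSNOR KO the deposited FPKM were highest for Jund (25.4 ± 3.57), Ier2 (22.3 ± 1.09), Jun (19.8 ± 2.75), Btg2 (16.6 ± 2.55) and Junb (13.7 ± 3.29), and the libraries of each neighbouring pair in this order overlapped. Egr1 (5.17 ± 1.25), Fos (3.19 ± 0.417), Fosl2 (2.26 ± 0.189), Atf3 (2.25 ± 0.286) and Fosb (0.220 ± 0.0543) followed (SD, n = 3). Of these, Fosl2 and Atf3 overlapped and the others were apart. In WT Jund (25.9 ± 6.26), Jun (25.7 ± 6.86), Junb (23.5 ± 6.07) and Ier2 (20.8 ± 3.09) overlapped, and the libraries of Btg2 (16.5 ± 1.18) lay below those of Ier2. Fos (10.9 ± 2.83) and Egr1 (9.88 ± 2.83) came next and overlapped, then Atf3 (6.39 ± 3.92), which overlapped Fos, Egr1 and Fosl2, then Fosl2 (2.91 ± 0.279) and Fosb (0.621 ± 0.537 FPKM). By mean FPKM over the 6 libraries the genes stood between percentile 7.82 (Fosb) and percentile 84.1 (Jund) of the tested genes.

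The genes did not vary as a block from library to library. WT replicate 1 held the highest value of Fos, Jun and Atf3, and WT replicate 3 that of Fosb, Junb and Egr1. GSNOR KO replicate 1 held the lowest value of 5 genes, namely Fosb, Fosl2, Jun, Jund and Btg2. Within WT the SD of log2 CPM was 1.33 for Fosb and 0.94 for Atf3, larger than in 98.4% and 95.5% of the tested genes, and 0.08 for Fosl2, larger than in 9.08%. For Fos it was 0.23 in WT and 0.24 in GSNOR KO, larger than in 46.4% and 72.6% of genes. Among the WT libraries replicate 1 was highest and replicate 3 lowest for Atf3, and the reverse held for Fosb and Egr1. The heat shock genes, whose list had 0 of 11 tested genes called by edgeR or DESeq2 and 1 at an unadjusted p under 0.05, summed to 1285 to 1825 CPM in GSNOR KO, against 2338 CPM in WT replicate 1, 1756 CPM in WT replicate 2 and 1668 CPM in WT replicate 3. The most abundant of them, Hspa8, was named after its values were seen. It was at 663, 635 and 194 CPM in GSNOR KO replicates 1 to 3 and at 888, 698 and 635 CPM in WT replicates 1 to 3.

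**Figure D5:**
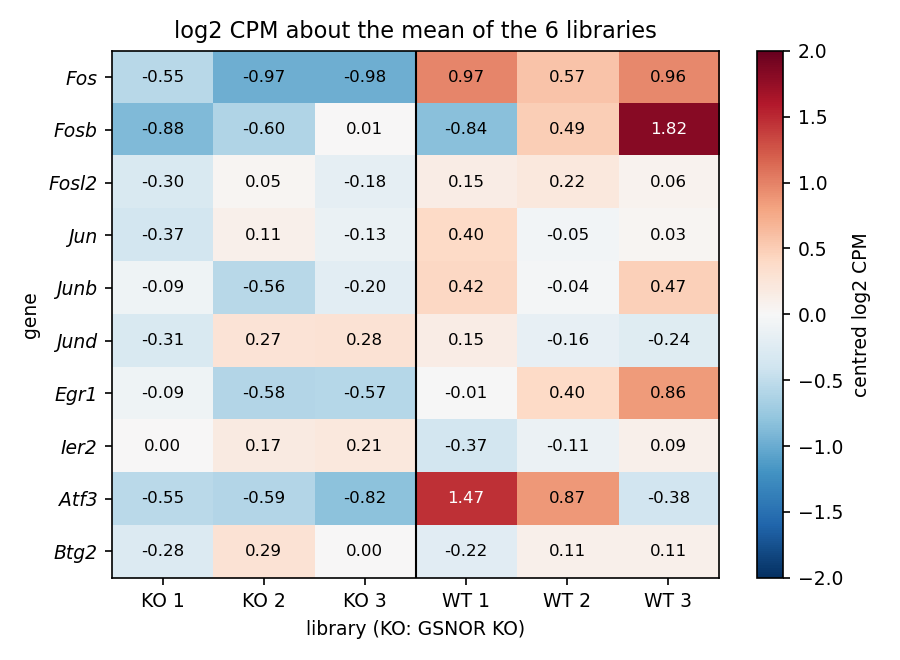
Log2 CPM of each gene about its own mean over the 6 libraries, GSNOR KO libraries left of the line and WT libraries right of it, red above and blue below the mean. Fos is below its mean in the 3 GSNOR KO libraries (-0.98 to -0.55) and above it in the 3 WT libraries (0.57 to 0.97), while Fosb peaks in WT replicate 3 (1.82) and Atf3 in WT replicate 1 (1.47).

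The 10 profiles averaged -0.34, -0.24 and -0.24 in GSNOR KO replicates 1 to 3 and 0.21, 0.23 and 0.38 in WT replicates 1 to 3, in log2 CPM about the mean. Among 10251 other genes with at least 5 CPM, those nearest to this mean profile were Fbxo24, Ulk2, Lnpep, Mbnl2 and Frmd6, with root mean square differences of 0.06 to 0.07 on the log2 scale over the 6 libraries. The choice by this profile fixes their direction, and their log2 fold changes ran from -0.58 (Ulk2 and Frmd6) to -0.48 (Fbxo24).

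The genes around AP-1 and EGR in the same pathways were described by 8 lists. Of 140 tested list genes outside the 10 members, 9 were called, which is 6.43% against 7.04% of all genes, and in GSNOR KO 2 of them rose and 7 fell. The number was 0 without any one of the GSNOR KO libraries, 1 without WT replicate 2, 7 without WT replicate 3 and 26 without WT replicate 1. Over all tested genes, in the same order, these fits called 3 to 5, 13, 915 and 2844, so the list numbers moved with those of all genes.

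Of 15 other AP-1 and partner bZIP genes 0 rose and 1 fell. Maf, a large MAF factor that macrophages also express, fell to 13.3 ± 1.33 CPM in GSNOR KO, against 37.4 ± 17.5 CPM in WT (log2 fold change -1.50, edgeR adjusted p = 0.0387). The macrophage markers C1qa and C1qb fell as well, with C1qb at 18.9 ± 3.81 CPM in GSNOR KO and 42.4 ± 12.4 CPM in WT. For Atf1, a CREB relative, the log2 fold change was -0.59 (adjusted p = 0.0698), and for Maff, a small MAF factor, 0.49 (adjusted p = 0.0881). Of 4 tested EGR genes and NAB corepressors 0 were called by edgeR or DESeq2 and 1 had an unadjusted p under 0.05, namely Egr2, at 0.899 ± 0.281 CPM in GSNOR KO and 1.94 ± 0.851 CPM in WT (SD, n = 3 each, log2 fold change -1.11, adjusted p = 0.151). Nab2, a corepressor of EGR proteins, had a log2 fold change of -0.19 and Egr3 one of -0.31. The list medians were -0.20 and -0.25, against -0.04 for all tested genes.

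Other immediate early genes were called in both directions. Of 45 tested, 2 rose, 2 fell and 41 did not pass, with a median log2 fold change of -0.04, equal to that of all genes. DESeq2 called 13 of the 45, 8 higher and 5 lower in GSNOR KO, against 2344 of all 13694 tested genes. Klf2 and Klf4, zinc finger genes that endothelial cells are known to express, rose. Klf4 was at 97.2, 163 and 134 CPM in GSNOR KO replicates 1 to 3 and at 36.6, 67.5 and 46.7 CPM in WT replicates 1 to 3 (log2 fold change 1.39, edgeR adjusted p = 0.0333). Klf2, named after its values were seen, was at 288, 613 and 473 CPM in GSNOR KO replicates 1 to 3 and at 122, 195 and 75.1 CPM in WT replicates 1 to 3 (log2 fold change 1.81, adjusted p = 0.0428). All GSNOR KO libraries exceeded all WT libraries for both genes, opposite to Fos. The endothelial marker Cdh5 was at 737 ± 89.3 CPM in GSNOR KO and 545 ± 190 CPM in WT (SD, n = 3 each, adjusted p = 0.323), and 0 of 9 endothelial markers were called by edgeR and 2 by DESeq2, with 2 at an unadjusted p under 0.05. Gadd45b, a stress and damage response gene, fell to 9.96 ± 1.33 CPM in GSNOR KO, against 26.4 ± 7.91 CPM in WT (log2 fold change -1.40, adjusted p = 0.0226). Bhlhe40, a basic helix-loop-helix repressor linked to the clock, fell to 39.3 ± 2.23 CPM in GSNOR KO, against 57.6 ± 4.33 CPM in WT (log2 fold change -0.55, adjusted p = 0.0321).

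Upstream, 2 of 20 genes of the ERK and SRF pathway fell and 0 rose (median -0.07). Egfr, the epidermal growth factor receptor, was at 2.52, 2.74 and 3.33 CPM in GSNOR KO replicates 1 to 3 and at 6.08, 9.14 and 7.82 CPM in WT replicates 1 to 3 (log2 fold change -1.42, edgeR adjusted p = 0.0226). Rps6ka3, an ERK-activated kinase that acts on CREB and FOS, fell by 0.54 on the log2 scale (adjusted p = 0.0449), and the value of Rps6ka2 was -0.42 (adjusted p = 0.115). Of 17 JNK, p38 and CREB pathway genes 0 were called by edgeR and 1 by DESeq2, and 4 had an unadjusted p under 0.05 (median -0.09). Mapk8, which encodes JNK1, had a log2 fold change of -0.34, Mapk12 one of -0.38 and Mapk13 one of 1.30 at 1.53 ± 0.120 CPM in GSNOR KO and 0.620 ± 0.202 CPM in WT (adjusted p = 0.115, 0.141 and 0.0750). The BTG/TOB genes, relatives of Btg2, and the CCR4-NOT genes, its partners, made up 15 tested genes (median -0.13). Of these 0 were called by edgeR and 1 by DESeq2, and 2 had an unadjusted p under 0.05. They were the relatives Btg1 and Tob1, with log2 fold changes of -0.33 and -0.27, while the relative Btg3 was at 0.48.

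Downstream, 2 of 13 textbook AP-1 target genes fell and 0 rose, with a median log2 fold change of -0.90. The median was 0.03 without WT replicate 1, where 7 of the 13 were above 0, and -1.04 to -0.77 without each other library. Without WT replicate 1 or 3 again 2 were called, and 0 without WT replicate 2 or any one GSNOR KO library. Over all tested genes the fits without WT replicates 1, 2 and 3 called 2844, 13 and 915. Those without a GSNOR KO library called 3 to 5. The genes of the list summed to 323, 318 and 298 CPM in GSNOR KO replicates 1 to 3 and to 634, 351 and 285 CPM in WT replicates 1 to 3, so that WT replicate 1 stood above the rest and WT replicate 3 below all GSNOR KO libraries. Plau, the urokinase gene, fell to 20.4 ± 1.87 CPM in GSNOR KO, against 32.6 ± 5.39 CPM in WT (log2 fold change -0.68, edgeR adjusted p = 0.0418). Mmp3, a matrix metalloprotease gene, was at 4.61 ± 1.02 CPM in GSNOR KO and 8.64 ± 1.58 CPM in WT (SD, n = 3 each, adjusted p = 0.0590). Fibroblasts and macrophages also express genes of this list, and the fibroblast marker Dcn was at 96.3 ± 3.46 CPM in GSNOR KO and 179 ± 48.2 CPM in WT. Among the heat shock genes Hspa1a, an inducible chaperone, had a log2 fold change of -0.79, Hspa5 one of -0.41 and Hsp90aa1 one of -0.26 (edgeR adjusted p = 0.147, 0.189 and 0.298).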

How the data were processed

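The authors deposited 1 table with whole-number counts per gene and library, unnormalized per the file headers, and FPKM values scaled by the authors to length and library size. It also holds 2 columns of the authors' deposited DESeq comparison, the adjusted p and the fold on the log2 scale. The build was GRCm38 (mm10), per the submitters' processing notes. Aligner, counting tool and strand setting: not given in the sources used here. Libraries held 20277594 to 23961574 counts, and 3 counts equalled 0.131 to 0.138 CPM.

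Counts were tested with edgeR 4.0.16 in R 4.3.3 after filterByExpr and TMM scaling (factors 0.930 to 1.08), with the robust quasi-likelihood F test and Benjamini-Hochberg adjustment over 13694 genes. CPM use TMM-scaled totals, the SE is the log2 fold change over the square root of F, and intervals are approximate. The fit was tested on simulated data. DESeq2 1.42.0, limma 3.58.1 voom and limma on log2(FPKM + 1) served as alternatives, with other scalings, filters, a replicate block and each library left out in turn. The members and lists were chosen with earlier results of these data known. Named were all members, Adh5, up to 3 genes with the smallest p and at least 1 CPM per pathway list, the 2 most abundant genes per marker list, and the 5 genes nearest to the members' mean profile. Some genes that this rule names are not reported here.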

Additional observations from a re-analysis of the deposited data

How the results depend on the processing

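Of 160 values of the 10 genes under 16 alternatives, 146 kept their direction and their side of the threshold. Fos kept its direction in all 16, with log2 fold changes of -1.83 to -1.48, and was called in 13, all but the 3 that left out a GSNOR KO library. Over all genes those 3 fits called 3 to 5, against 2844, 13 and 915 without WT replicates 1, 2 and 3, and the cause was not tested. DESeq2 called 3 of the 10 genes, 2344 of all genes and 22 list genes. Limma on log2(FPKM + 1) called 184 of all genes, 139 higher and 45 lower, and 1 list gene. Leaving out 1 library gave 0 to 3 members called, 3 to 2844 of all genes and 0 to 26 list genes. The sign of Btg2 turned on plain library totals (-0.0442), with FPKM (-0.0026) and in some leave-outs, which ranged from -0.13 to 0.15, and that of Jund turned with FPKM (-0.0141). The cause was not tested. Leaving the mitochondrial genes out of the library totals, an alternative chosen after seeing the data, kept the 1 call among the members. The labels do not say whether libraries with the same replicate number are linked. Deviations of same-numbered libraries correlated at 0.16, 0.13 and -0.06, and 3 of 6 libraries correlated best with their own number. With 3 libraries per genotype these values do not settle it. With the replicate block 2 of the 10 genes were called, Junb beside Fos (adjusted p = 0.0479 and 0.0191), and 884 of all genes. The counts per library limit Fosb most, with 17 counts in its lowest library.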
